A study of Mus musculus with 2 samples.

Results

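The Zic genes encode zinc finger transcription factors of the dorsal nervous system, and 4 of them, Zic1, Zic2, Zic4 and Zic5, were followed here among the 19720 genes listed for embryonic mouse brain. The members were chosen by gene name, from their Ensembl identifiers, and all 4 were found in the table. The study compared mice with a conditional knockout of the histone variant H2A.Z with mice carrying floxed H2A.Z alleles, both of strain C57BL/6, and its title names astrocytes and a histone H3 acetylation mark as the subject. The control is labelled H2AZfl/fl in its genotype field and WT in its title, and the knockout H2AZcKO. The titles give embryonic day 16 and the stage field embryonic day 12. The tissue is labelled telencephalic, with cortex dissected for RNA. The Cre driver of the knockout was not given in the sources used here. The design speaks of triplicates, but 1 count column per genotype was analysed, so each value below compares 1 knockout library with 1 control library and no test between genotypes was possible.

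Zic proteins bind DNA through a block of C2H2 zinc fingers, in which 2 cysteines and 2 histidines hold a zinc ion, and they also act as partners of other factors. They belong to one superfamily with the Gli and Glis proteins, the Gli proteins being the transcription factors of hedgehog signalling. In the embryonic forebrain they are known from the meninges, the dorsal midline, the septum, the olfactory bulb and the thalamus, with little expression in the neurons of the dorsal cortex. Loss of Zic2 function is a known cause of holoprosencephaly, a failure of the forebrain to divide, and loss of Zic1 and Zic4 together is tied to cerebellar malformation. Zic5 is known for its role in neural crest and neural tube closure.

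The 4 genes form pairs that lie back to back on opposite strands. Zic1, on the minus strand of chromosome 9 from 91358058 to 91365810, and Zic4, on the plus strand from 91362413 to 91389348, make the first pair. Zic5, on the minus strand of chromosome 14 from 122456795 to 122465677, and Zic2, on the plus strand from 122475435 to 122479852, make the second. These positions are those of the deposited table and are identical to the GRCm38 gene models of GENCODE M21 for all 4 genes. The start sites of Zic5 and Zic2 were 9758 bases apart, with no overlap. The gene models of Zic1 and Zic4 overlapped by 3398 bases, of which 60 were exonic in both, so without a known strand setting reads from those 60 bases cannot be told apart between the genes.

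The finger-coding sequence is similar between the members. A search of the translated GENCODE M21 reading frames for a C2H2 pattern, with 2 or 4 residues between the cysteines, found 4 matches in each member. The pattern misses any finger with another spacing, so the matches may not be a full count of fingers. From the first to the third match, a stretch of 258 bases, Zic2 and Zic5 were identical at 219 bases (84.9%), Zic2 and Zic4 at 218 (84.5%) and Zic4 and Zic5 at 207 (80.2%), and Zic1 was not compared here. The longest run of identical bases on the same strand in any annotated transcripts was 42 between Zic1 and Zic4 and 35 between Zic1 and Zic2, and the other pairs of members shared 20 to 30. On opposite strands the longest run was 63 bases, between Zic1 and Zic4, whose exons overlap. Read length was not given in the sources used here.

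The fourth match is shown because the members fall into different groups there, and its coding bases are given 5′ to 3′ on the gene's own strand. Zic1 and Zic2 have 2 residues between the cysteines and code the match across exons 2 and 3. Zic4 and Zic5 have 4 residues and code it within a single exon. Capitals mark the codons of the cysteines and histidines. The genomic spans, which include the intron in the case of Zic1 and Zic2, are, on GRCm38, chr9:91361761-91362515 (Zic1, minus strand), chr14:122478647-122478895 (Zic2, plus strand), chr9:91384121-91384189 (Zic4, plus strand) and chr14:122459600-122459668 (Zic5, minus strand).
Zic1: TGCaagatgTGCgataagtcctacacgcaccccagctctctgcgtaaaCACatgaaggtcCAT
Zic2: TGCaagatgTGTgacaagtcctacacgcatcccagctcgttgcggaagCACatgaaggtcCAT
Zic4: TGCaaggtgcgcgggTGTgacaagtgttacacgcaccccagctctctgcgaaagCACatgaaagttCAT
Zic5: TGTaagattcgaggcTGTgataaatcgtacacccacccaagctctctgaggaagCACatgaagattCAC

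The libraries held 8474545 reads in genes for the control and 9028523 for the knockout. Counts were scaled by TMM, a method that sets aside the most extreme genes, and are given as CPM, the reads of a gene relative to the scaled total of its library. Of all listed genes, 14366 reached 20 reads over both libraries together and are called measured, and their median log2 ratio of knockout to control was 0.00. A gene is called apart where its levels differ 1.5-fold or more in either direction. Each ratio has an exact 95% interval from the split of a gene's reads between the libraries (Clopper-Pearson), and each single level a Poisson one, which cover counting error only, not the variation between animals. The targeted gene, H2afz, had 1152 control and 535 knockout reads (log2 ratio -1.16, -1.31 to -1.01).

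Zic1 and Zic4, the pair on chromosome 9, were modestly higher in the knockout library, and Zic2 and Zic5, the pair on chromosome 14, were close to level. Zic1 had 1004 control reads and 1239 knockout reads, scaled levels of 117.1 CPM (109.9 to 124.5) and 138.9 CPM (131.3 to 146.9). Its log2 ratio was 0.25 (0.13 to 0.37), or 1.19-fold. Zic4 had 269 and 394 reads, 31.4 CPM (27.7 to 35.3) and 44.2 CPM (39.9 to 48.8). Its log2 ratio was 0.49 (0.27 to 0.72), or 1.41-fold higher, and its upper limit of 1.65-fold lies past 1.5-fold. In both genes of this pair the knockout library was the higher one.

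Zic2 had 385 control reads and 402 knockout reads, 44.9 CPM (40.5 to 49.6) and 45.1 CPM (40.8 to 49.7). Its log2 ratio was 0.01 (-0.20 to 0.21), a ratio interval of 0.871 to 1.16. Zic5, the member with the fewest reads, had 157 and 152, 18.3 CPM (15.6 to 21.4) and 17.0 CPM (14.4 to 19.97). Its log2 ratio was -0.10 (-0.43 to 0.23). The levels of the 2 libraries overlapped for both genes, and no difference was detectable at this depth.

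**Figure D1:**
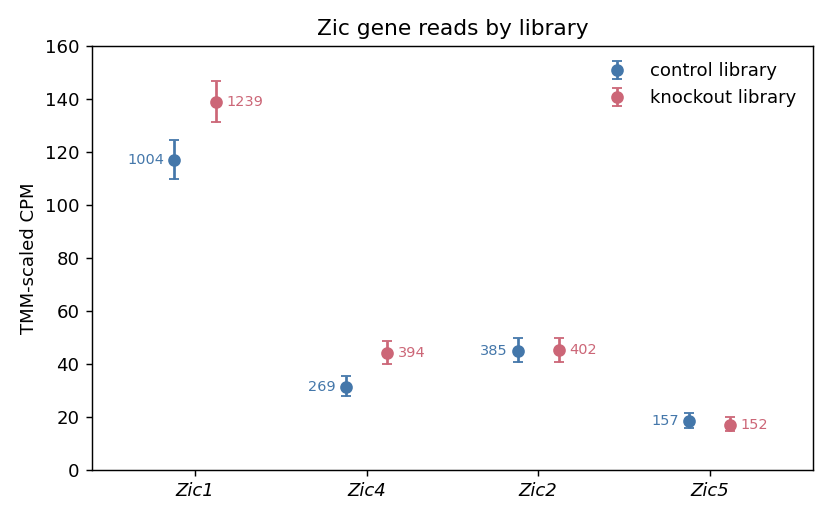
TMM-scaled CPM (vertical axis, from 0) of the 4 Zic genes in the control and the knockout library, with exact 95% Poisson intervals that cover counting error only and the read count beside each point. Zic1 and Zic4 sit higher in the knockout library, at 138.9 against 117.1 CPM and 44.2 against 31.4 CPM, while the points of Zic2 and Zic5 lie side by side.

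None of the 4 members was at least 1.5-fold apart, against 8.95% of all measured genes (3.52% higher and 5.43% lower). An interval that excluded a ratio of 1 was found for 2 of the 4 members, both higher, and for 21.8% of measured genes (12.5% higher and 9.3% lower). Because deeper genes reach this second limit more easily, each member was also set beside genes of like depth, those with total reads within a factor of 2 of its own. Among 4981 genes of the depth of Zic4, 149 (2.99%) had a ratio further from level, and among 3474 genes of the depth of Zic1, 248 (7.14%) did. For Zic2 the share was 96.8% of 4985 genes and for Zic5 65.5% of 4106. Zic4 therefore lay near the edge of its depth class and Zic2 near the middle.

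**Figure D2:**
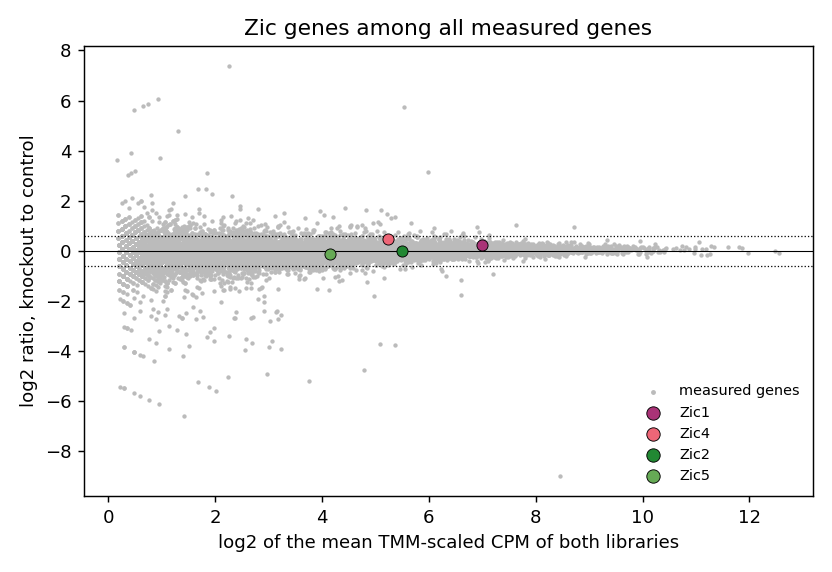
Log2 ratio of knockout to control (vertical axis) against the log2 of the mean scaled CPM (horizontal axis) for 14366 measured genes in grey, with the 4 Zic genes in colour and dotted lines at 1.5-fold. All 4 lie between the dotted lines, with Zic4 at 0.49 nearest to the upper one.

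In the authors' deposited table, none of the 4 genes is marked as significant. The authors' deposited table gives adjusted p-values of 0.00149 for Zic4, 0.0105 for Zic1, 0.903 for Zic2 and 0.723 for Zic5, and the method behind them was not given in the sources used here. With 1 column per genotype such a test compares the reads of these libraries and not the genotypes.

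Summed over each pair, the reads of the chromosome 9 genes were higher in the knockout library and those of chromosome 14 close to level. Zic1 and Zic4 together had 1273 control reads and 1633 knockout reads, a log2 ratio of 0.30 (0.20 to 0.41). Zic2 and Zic5 together had 542 and 554, a log2 ratio of -0.02 (-0.20 to 0.15), and the intervals of the 2 sums did not overlap. Taken singly, the interval of Zic1 (0.13 to 0.37) overlapped those of Zic2 (-0.20 to 0.21) and Zic5 (-0.43 to 0.23). That of Zic4 (0.27 to 0.72) lay above both. How often sums of other gene pairs lie this far apart was not counted, and a difference between the loci was not tested. All 4 genes summed to 1815 and 2187 reads, a log2 ratio of 0.21 (0.12 to 0.30), a total in which Zic1 alone made up 55.3% of the control reads and 56.7% of the knockout reads. The members that were higher are those of chromosome 9, and whether their shared locus has a part in this was not tested.

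Within each pair the balance between the genes differed little. Zic4 took 21.1% of the reads of its pair in the control (exact 95% interval 18.9 to 23.5) and 24.1% in the knockout (22.1 to 26.3). Zic5 took 28.97% of its pair in the control (25.2 to 33.0) and 27.4% in the knockout (23.8 to 31.4). The intervals of the 2 libraries overlapped for both pairs, narrowly for Zic4. Such overlap is not a test of the difference, and a shift of balance within a pair was not tested.

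Set per kilobase of annotated exon, so that genes can be compared with each other, the order in the control was Zic1 at 20.6 CPM per kilobase, Zic2 at 15.6, Zic5 at 3.74 and Zic4 at 3.03. In the knockout it was 24.4 for Zic1, 15.6 for Zic2, 4.27 for Zic4 and 3.49 for Zic5, so the lower 2 changed places. These values carry no intervals, and whether Zic4 and Zic5 differ within either library was not tested. Zic1 lay above 82.5% of measured genes in the control and 85.5% in the knockout, Zic2 above 75.8% and 75.6%, Zic4 above 31.5% and 39.8%, and Zic5 above 36.2% and 35.4%. The annotated exons of Zic4 sum to 10335 bases, against 2880 for Zic2, and include transcripts with retained introns. A long exon sum lowers the value per kilobase, and the place of Zic4 in this order depends on it.

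The upstream sequences of the chromosome 9 pair are shown because its genes were higher together. Windows from 250 bases before to 50 after the start, from RefSeq on GRCm38.p6, were matched for 3 of the 4 members, Zic1, Zic4 and Zic5. Capitals mark CCAAT, searched on both strands (also as ATTGG). The Zic1 window is chr9:91365719-91366018 on the minus strand, and the Zic4 window, at a RefSeq start inside the gene model of the table, is chr9:91368722-91369021 on the plus strand.
Zic1: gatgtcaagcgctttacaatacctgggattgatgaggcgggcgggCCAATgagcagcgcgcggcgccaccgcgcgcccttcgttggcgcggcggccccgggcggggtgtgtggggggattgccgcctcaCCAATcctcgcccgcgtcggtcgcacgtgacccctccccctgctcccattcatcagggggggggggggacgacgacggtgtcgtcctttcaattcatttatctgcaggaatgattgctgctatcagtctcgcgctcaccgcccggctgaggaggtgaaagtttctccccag
Zic4: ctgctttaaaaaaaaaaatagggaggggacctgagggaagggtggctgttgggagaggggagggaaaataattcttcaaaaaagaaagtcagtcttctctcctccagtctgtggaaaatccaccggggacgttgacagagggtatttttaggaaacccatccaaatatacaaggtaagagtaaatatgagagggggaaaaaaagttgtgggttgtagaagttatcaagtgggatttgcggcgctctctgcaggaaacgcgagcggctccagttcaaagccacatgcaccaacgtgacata

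The Zic1 window held 2 CCAAT matches and those of Zic4 and Zic5 held 0, and 37.4% of all 32851 windows of this length held at least 1. It had 31 CpG dinucleotides, more than 89.4% of all windows, against 8 for Zic4 and 15 for Zic5 and a median of 7. The letters CAGCAGG, a core of known Zic binding sites, and TGGGTGGTC, that of Gli sites, were searched on both strands as well. None of the 3 windows held either, and 10.5% and 0.253% of all windows did.

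The genes around both loci held few reads or were close to level. Within 1 Mb of the chromosome 9 pair 10 other genes were listed and 2 were measured, Plscr1, a phospholipid scramblase gene with 24 and 19 reads, and the gene model Gm5620 with 28 and 19. Within 1 Mb of the chromosome 14 pair 9 of 13 were measured. Dock9, a gene for an activator of the GTPase Cdc42, was at a log2 ratio of -0.01 (-0.17 to 0.15), Tm9sf2, a membrane protein gene, at -0.03 (-0.18 to 0.12), Ubac2 at -0.11 (-0.35 to 0.13), Tmtc4 at -0.05 (-0.28 to 0.18) and Pcca, an enzyme gene of propionate breakdown, at -0.27 (-0.60 to 0.05). The noncoding gene 2610035F20Rik, which lies between Zic5 and Zic2 from 122470284 to 122475199, had 43 and 37 reads (log2 ratio -0.27, -0.95 to 0.39). A330035P11Rik had 16 and 20 reads.

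Of these 11 measured neighbours, 3 were at least 1.5-fold lower and 0 higher, against 5.43% and 3.52% of all measured genes. With a prior of 5 reads 1 was apart, and 2 were when scaled by median of ratios. The 3 were Clybl with 37 and 23 reads, Ggact with 16 and 10, and Gm5620. The intervals of all 11 included a ratio of 1. No measured neighbour was therefore higher beyond counting error. The 2 at the chromosome 9 pair had too few reads to show a rise of the size of Zic1. The interval of Gm5620 (-1.54 to 0.28) includes the log2 ratio of Zic1, and that of Plscr1 (-1.34 to 0.54) those of Zic1 and Zic4.

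**Figure D3:**
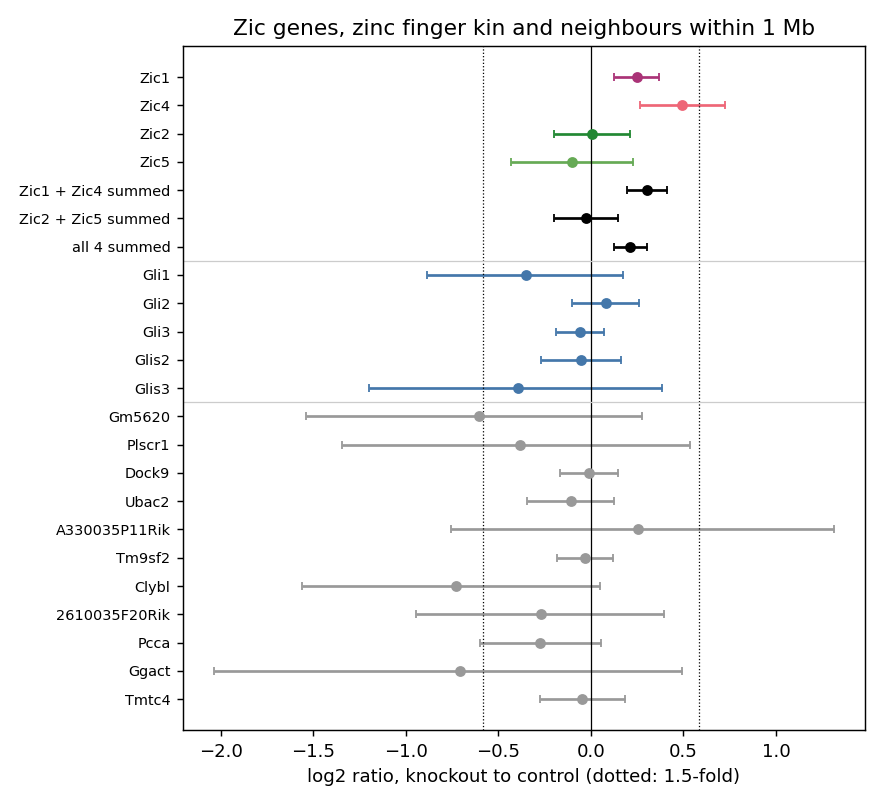
Log2 ratio of knockout to control (horizontal axis) with exact 95% intervals for the 4 Zic genes, their sums, 5 measured zinc finger kin (blue) and the 11 measured neighbours within 1 Mb (grey), with dotted lines at 1.5-fold. The intervals of Zic1, Zic4 and the sums that contain them lie above 0, and those of all kin and neighbours cross 0.

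The Gli and Glis kin were level. Of 6 listed, 5 were measured and 0 were at least 1.5-fold apart, with a median log2 ratio of -0.06. Gli2, an activator of hedgehog targets, was at a log2 ratio of 0.08 (-0.10 to 0.26), and Gli3, mainly a repressor, at -0.06 (-0.19 to 0.07). Gli1, itself a target of the pathway, was at -0.35 (-0.88 to 0.17), with 70 and 57 reads. Glis2 was at -0.05 and Glis3, with 33 and 26 reads, at -0.39 (-1.20 to 0.39), and Glis1 had 7 and 5 reads.

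Genes for proteins that bind or turn over Zic proteins were level too. All 8 were measured, 0 were at least 1.5-fold apart, and the median log2 ratio was -0.02. Mdfi, which encodes a protein that holds Zic proteins in the cytoplasm, was at 0.37 (-0.29 to 1.06), with 34 and 46 reads. Rnf180, the gene of a ubiquitin ligase for Zic2, was at -0.08 (-0.35 to 0.20), and Ctnnb1, the beta-catenin gene, at 0.01 (-0.03 to 0.05). Chd4, a chromatin remodeller gene, was at -0.06 (-0.12 to -0.0036), the single interval of this list that excluded level.

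Genes reported in other systems as regulated by Zic proteins went different ways. Of 11 on the list 7 were measured, with a median of 0.09. Of the 7, 2 were at least 1.5-fold higher and 0 lower, against 3.52% and 5.43% of all measured genes. Tcf7l2, a Wnt pathway transcription factor gene, had 111 and 1017 reads, an 8.77-fold higher level in the knockout (7.24 to 10.8). Six3, a homeobox gene of the anterior forebrain, was at a log2 ratio of 1.14 (0.88 to 1.40), with 177 and 406 reads. Both are also on the lists of thalamic or septal markers below. Ephb1, the ephrin receptor gene that Zic2 switches on in retinal axons, was at a log2 ratio of 0.20 (0.07 to 0.33), and Epha4, another ephrin receptor gene, at 0.09 (0.01 to 0.17). Apoe, an apolipoprotein gene, was at -0.55 (-0.75 to -0.34), Sfrp1, a Wnt inhibitor gene, at -0.02 and the dopamine receptor gene Drd1 at -0.04. Slc6a4 and Pax3 had at most 4 reads in either library, and Atoh1 and Foxd3 are not listed.

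Markers of tissues where Zic genes are active went different ways. For the counts of each list, the shares over all measured genes were 3.52% higher and 5.43% lower. Meningeal genes were lower: of 23 measured, 18 were at least 1.5-fold lower and 1 higher, with a median log2 ratio of -3.15 (-2.79 with genes at 0 reads set to a floor of 3). Of the 23, 12 reached 20 reads in the control library alone. Their summed level was 601.9 CPM in the control and 182.8 CPM in the knockout, with Gjb2 and Slc22a6 at 0 reads in the knockout. The collagen gene Col1a1, with 455 and 17 reads, was 27.1-fold lower. Foxc1, a transcription factor gene needed to form the meninges, was at -0.31 (-0.94 to 0.31), with 50 and 42 reads. Genes of the dorsal midline had a median of -0.997, with 8 of 12 lower and 0 higher and summed levels of 163.7 and 110.3 CPM. Bmp7, with 140 and 66 reads, counts among the lower genes of both this list and the meningeal list. Of the 12, 3 reached 20 reads in the control library alone, and the median was -0.58 among those with at least 100 reads in all. Among them Msx1, a BMP target, had 61 and 7 reads, and Wnt8b, a ligand gene of the cortical hem, 91 and 52.

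Part of the septal and thalamic genes were higher. Of 9 measured septal genes 5 were higher and 1 lower, with a median log2 ratio of 0.85 (0.51 with no minimum of reads). Summed levels over the list were 125.4 and 220.2 CPM. The 5 higher were Isl1, Nkx2-1, Lhx8, Six3 and Gbx1, and whether their reads came from the septum cannot be told in bulk tissue. Lhx8, a LIM homeobox gene of cholinergic neurons, was 2.49-fold higher (1.86 to 3.40), with 63 and 164 reads. The lower one was the growth factor gene Fgf17, with 34 and 22 reads. Of the others measured, Fgf18 was at -0.50 (-1.28 to 0.24), Trp73 at -0.41 (-0.66 to -0.16) and Sp8 at 0.24. Fgf8, which marks the septal midline at earlier stages, had 2 reads in each library. Of 15 measured thalamic genes 10 were higher and 1 lower, with a median of 1.44 and summed levels of 253.7 and 435.4 CPM. The lower one, Otx2, is also on the choroid plexus list. Of the 15, 6 reached 20 reads in the knockout library alone, and the median was 0.16 among those with at least 100 reads in all. Shox2 was at 0 reads in the control. So was Sox14, which had 19 reads in the knockout and was not among those measured. Gbx2, a homeobox gene of thalamic neurons, had 9 and 54 reads. In contrast Lhx9, another thalamic homeobox gene, had 363 and 377. Slc17a6, with 672 and 704 reads, Calb2, with 237 and 276, and Barhl2, with 89 and 92, were also less than 1.5-fold apart.

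The other lists cover further cell types that express Zic genes or adjoin them. Of 10 measured genes of olfactory bulb interneurons and their progenitors, 3 were higher and 0 lower, with a median of 0.38 and sums of 1035 and 1254 CPM, and 1 of the 10 reached 20 reads in the knockout library alone. For Cajal-Retzius neurons 1 of 10 genes was higher and 0 lower, the median was 0.22, and the sums were 1336 and 1329 CPM. The intervals of 4 of these genes lay above level and those of 3 below it. Ebf2 was the highest at 0.63 (0.11 to 1.18), with 50 and 81 reads. Trp73, which marks those Cajal-Retzius neurons that come from septum and hem, was the lowest at -0.41 (-0.66 to -0.16), with 296 and 232 reads. It is also on the septal list. Of 4 measured habenular genes 1, Tac1, was higher, with a median of 0.08 and sums of 63.1 and 71.97 CPM. Endothelial genes had a median of -0.26, with 1 of 8 lower and 0 higher, and sums of 201.7 and 177.8 CPM. All 10 measured choroid plexus genes were lower, with a median of -5.05 (-4.22 with the floor and -3.17 with a prior of 5 reads) and sums of 826.5 and 25.7 CPM. Of the 10, 8 reached 20 reads in the control library alone, and Calml4 was at 0 reads in the knockout. Kcnj13, with 11 and 0 reads, was not among those measured. Genes of the dorsal cortex, the labelled tissue, were all measured, with 0 of 12 apart, a median of -0.08 and sums of 4091 and 3953 CPM.

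**Figure D4:**
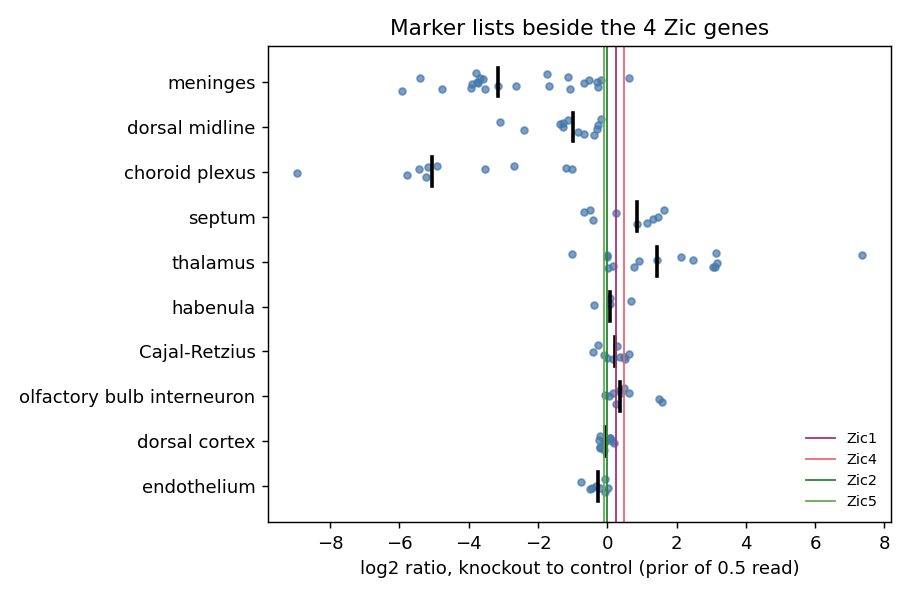
Log2 ratio of knockout to control (horizontal axis, prior of 0.5 read) of the measured genes of 10 marker lists, each point a gene and each black bar a list median, with coloured lines at the 4 Zic genes. The Zic lines lie between -0.10 and 0.49, and the meningeal median at -3.15. The thalamic median is 1.44 here and 0.16 among genes with at least 100 reads, which is below Zic1 and Zic4.

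The part of these tissue markers in the Zic values was not tested. In bulk tissue more cells of a type and more RNA per cell cannot be told apart.

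The genes whose ratio over these 2 libraries was most like that of each member, among genes of like depth with at least 100 reads, serve as a description only, since 2 libraries fix a single ratio. For Zic4 they were Sap30, Cbln1 and Grid1, with log2 ratios within 0.0014 of its own among 4971 candidates. For Zic1 they were Gprin1, Tdg and Zfp319 among 3472, for Zic2 Camk2n1, Tmem43 and Senp5 among 4976, and for Zic5 Pisd-ps2, Aurka and Abt1 among 4091.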

How the data were processed

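RNA from 1 control and 1 knockout library was sequenced from 2 ug of total RNA after Trizol extraction and TruSeq preparation, per the labels' protocols. HTSeq 0.6.0, TopHat2 2.0.12, Bowtie2 2.2.3 and the build mm9 are named in the submitters' processing notes, without roles. Positions in the deposited table matched GENCODE M21 gene models on GRCm38 exactly for 15566 of 19616 genes (79.4%), so they are given as GRCm38. Strand setting, multi-mapping rule and pooling were not given in the sources used here. The table holds raw counts per gene, per the file headers. The authors' CPM columns, their fold ratio and its log2 value in the deposited table were not used. The p-values deposited by the authors are quoted only where named.

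Symbols were matched for 19616 identifiers. Counts were scaled by TMM (edgeR 4.0.16, R 4.3.3), and log2 ratios of knockout to control take a prior of 0.5 read. Thresholds were 20 reads in both libraries summed and 1.5-fold, and the floor for a library at 0 was 3 reads. With no replicates no model was fitted and no p-value was computed. Intervals, sequence searches and figures used scipy 1.17.1, matplotlib 3.10.9, pandas 2.3.3 and numpy 2.4.6 under Python 3.11.15, and the interval calculation was tested on simulated counts. For each gene the transcript marked principal with the longest coding sequence was translated. The 13 lists cover Zic kin, partners and targets, meninges, septum, thalamus, habenula, dorsal midline, choroid plexus, Cajal-Retzius neurons, olfactory bulb interneurons, dorsal cortex and endothelium. Named genes are the Zic genes, H2afz, measured neighbours within 1 Mb, up to 4 list members furthest from level, and for each member the 3 genes of nearest ratio. Other list genes named here were chosen after their values were seen. Values of 2 list genes are not reported here, and their lists were counted without them. The members and lists were chosen with earlier results of these data known. Alternatives were scaling by library total or by median of ratios (DESeq2 1.42.0), a prior of 5 reads, minimums of 100 reads or none, and a fold of 2.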

Additional observations from a re-analysis of the deposited data

How the results depend on the processing

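The log2 ratios of the members moved little under the other scalings and a prior of 5 reads: Zic1 stayed between 0.21 and 0.27, Zic4 between 0.46 and 0.52, and Zic5 between -0.14 and -0.08. That of Zic2 changed sign around level, from -0.03 scaled by library total to 0.03 scaled by median of ratios. Of 595 values under alternatives, 11 moved, 3 of them ratios of single genes at 0 reads in one library (Calml4, Shox2 and Slc22a6, with a prior of 5 reads), and 0 reversed a called difference. A ratio counted as moved outside its counting interval and a count beyond 1.5 times. A list median counted as moved outside the medians of its genes' interval limits. By this rule the dorsal midline median, -0.997 and -0.58 with a minimum of 100 reads, did not move. Each other scaling shifts all log2 ratios by the same amount, so these values are not independent checks. The median of the thalamic list was 0.16 with a minimum of 100 reads, and 1 neighbour was at least 1.5-fold apart with a prior of 5 reads. Genes apart numbered 506 higher and 780 lower in all, 138 and 289 at 2-fold, 165 and 200 with a minimum of 100 reads, and 1833 and 2303 with none. Depth limits Zic5 most, with 157 and 152 reads. No paired analysis was possible because each genotype has 1 library. Leaving out a library was not possible for the same reason.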
